A study of Mus musculus with 6 samples.

Results

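The genes of the MHC class II pathway and their co-activator Ciita were examined in i660BM, a pro-B line of the mouse that makes the transcription factor PU.1 when given doxycycline. The set was chosen by gene symbol as Ciita, the class II chain genes H2-Aa, H2-Ab1, H2-Eb1 and H2-Eb2, the DM genes H2-DMa, H2-DMb1 and H2-DMb2, the DO gene H2-Ob and the invariant chain gene Cd74. All 10 symbols had a row among the 23793 rows of the authors' deposited table. RNA was sequenced from 3 libraries of non-induced cells and 3 libraries of cells given 70 ng/ml doxycycline for 48 h. Both groups were of strain C57BL/6, carried the inducible PU.1 system and grew in medium with interleukin 7. The line is a single cultured line, nothing in the labels tells if its libraries were separate cultures, and no group received doxycycline without the inducible factor acting, so the drug and the factor cannot be told apart.

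MHC class II molecules are pairs of an alpha and a beta chain that present peptides from the endosomal system to CD4+ T cells. The invariant chain, Cd74, fills the groove of a newly made class II molecule, and its last remnant is exchanged for peptide by DM, a class II-like pair of H2-DMa with H2-DMb1 or H2-DMb2. DO, the pair of H2-Oa and H2-Ob, inhibits DM and is found mainly in B cells. Ciita does not bind DNA itself: it is recruited to a promoter module of X and Y boxes held by the RFX complex, NF-Y and CREB, and is regarded as the main switch of class II transcription. Mouse B lineage cells display class II at the surface only after the pro-B stage. In the C57BL/6 strain a promoter deletion silences the E alpha gene, so no E pair forms there.

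The promoter module is shown first, because genes that carry it changed in different directions, H2-Ob upward and H2-DMb2 and H2-Eb2 downward. RefSeq promoter windows (build GRCm38.p6, 250 bases before to 50 after a start site) were found for 7 of the 10 genes, H2-Aa, H2-Eb1, H2-Eb2, H2-DMa, H2-DMb1, H2-DMb2 and H2-Ob. The Y box core was searched as TGATTGG, which contains the reverse complement of CCAAT, and X box letters as AACNNATG, a form chosen after these windows had been read. Both strands were searched. The lines below give 48 bases each, 5′ to 3′ on the strand of the gene, with the Y box core, the X box letters and, in H2-Aa, the CRE letters TGACGTCA in capitals.
H2-DMb2: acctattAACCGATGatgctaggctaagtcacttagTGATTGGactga
H2-Eb2: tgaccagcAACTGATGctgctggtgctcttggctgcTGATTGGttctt
H2-Eb1: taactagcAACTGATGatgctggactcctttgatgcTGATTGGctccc
H2-Ob: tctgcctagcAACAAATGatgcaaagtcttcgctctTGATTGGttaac
H2-Aa: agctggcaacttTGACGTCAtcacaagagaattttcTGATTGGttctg
On chromosome 17 of this build these stretches lie at chr17:34145121-34145168 for H2-DMb2, chr17:34325537-34325584 for H2-Eb2, chr17:34305770-34305817 for H2-Eb1 and chr17:34238810-34238857 for H2-Ob, all on the plus strand, and at chr17:34287862-34287909 on the minus strand for H2-Aa. None overlaps an annotated exon. The H2-DMb2 stretch lies in an intron of a longer annotated transcript of that gene. The H2-Eb1 stretch lies within Gm20513, an annotated gene on the other strand.

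The core TGATTGG was present in 6 of the 7 genes and in 7.82% of all 32851 windows. H2-DMa was the gene without it, in both of its windows. The X box letters AACNNATG were present in 5 of the 7 genes, H2-DMb1, H2-DMb2, H2-Eb1, H2-Eb2 and H2-Ob, and in 8.86% of windows. In these 5 genes the X box letters began 26 bases (H2-Ob), 28 bases (H2-Eb1 and H2-Eb2) or 29 bases (H2-DMb1 and H2-DMb2) before the Y box core. An arrangement with 20 to 35 bases between the starts of both was present in 13 windows, or 0.0396%. The CRE letters TGACGTCA were present in H2-Aa and in 1.79% of windows. The PU.1 letters GAGGAAGT, the shorter ETS letters AGGAAGT contained in them and the ETS-IRF composite element were in none of the 7 genes, against 3.20%, 9.35% and 0.731% of windows. These matches describe letters and show no binding.

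The 2 members of this module with the largest falls and the member that rose are shown at greater length, from 250 to 21 bases before the start site, with the X box letters and the Y box core in capitals.
H2-DMb2: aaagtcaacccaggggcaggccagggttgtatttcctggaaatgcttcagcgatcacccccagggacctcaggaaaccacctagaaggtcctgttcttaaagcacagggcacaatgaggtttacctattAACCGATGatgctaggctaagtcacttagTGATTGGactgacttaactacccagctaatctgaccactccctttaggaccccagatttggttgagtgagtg
H2-Eb2: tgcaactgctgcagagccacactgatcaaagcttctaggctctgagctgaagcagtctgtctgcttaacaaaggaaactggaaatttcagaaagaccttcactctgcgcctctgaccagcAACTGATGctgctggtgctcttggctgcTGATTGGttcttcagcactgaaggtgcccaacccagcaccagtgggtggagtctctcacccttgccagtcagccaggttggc
H2-Ob: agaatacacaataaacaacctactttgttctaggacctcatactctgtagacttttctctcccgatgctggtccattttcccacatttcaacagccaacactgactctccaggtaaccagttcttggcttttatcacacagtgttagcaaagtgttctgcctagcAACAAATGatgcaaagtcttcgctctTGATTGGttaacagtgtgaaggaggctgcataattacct
The Y box core begins 92 bases before the start site in H2-DMb2, 102 bases in H2-Eb2 and 59 bases in H2-Ob. The full stretches run over chr17:34144999-34145228, chr17:34325425-34325654 and chr17:34238655-34238884 (GRCm38.p6, plus strand).

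In induced cells H2-Eb2, H2-DMa and H2-DMb2 were lower and H2-Ob and Cd74 higher than in non-induced cells, while Ciita and the classical genes H2-Aa, H2-Ab1 and H2-Eb1 were near 0 in both groups. In bulk RNA, fewer cells expressing a gene and less RNA per cell cannot be told apart. Values are FPKM, fragments scaled to transcript length and to the size of the library, of which the authors' deposited table holds 1 per gene and group, so no spread between libraries can be given. Rose and fell are used of genes that the authors tested with a q-value under 0.05. The smallest Cuffdiff q-value, 0.000287, was shared by 1855 tested rows, so it does not rank the genes that have it. The standard error given for a log2 change is the change divided by the deposited test statistic, an implied value that the table does not state. The authors had tested 6 of the 10 genes, and 5 of these were called, 3 lower and 2 higher. Of all 10657 tested rows 35.1% were called, 19.0% higher and 16.1% lower, so a call by itself is common in this comparison. The median log2 change was -0.58 over the 6 tested members and -0.01 over all tested rows. Because a gene with low values in both groups was rarely tested (20 of the 13110 rows under 0.25 FPKM in both groups were), the counts over tested members do not stand for all 10.

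Several of these calls depended on the rule. With p-values taken from the test statistic as a normal deviate, 1 member was called higher (Cd74) and 2 lower (H2-Eb2 and H2-DMb2), where 15.2% of tested rows were called, 9.0% higher and 6.17% lower. A minimum change of 1.5-fold kept the same 3 members, with 10.2% of rows called, 6.34% higher and 3.85% lower. A q-value under 0.01 left 2 members higher and 2 lower, H2-DMa being uncalled, with 25.9% of rows called, 14.8% higher and 11.1% lower. All 5 calls stood among rows with a mean of at least 1 FPKM, of which 34.7% were called (18.6% higher, 16.2% lower). No member shares its locus with another row, so leaving out rows that do could not change a member's call. Without those rows 38.1% were called (20.4% higher, 17.7% lower).

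**Figure D1:**
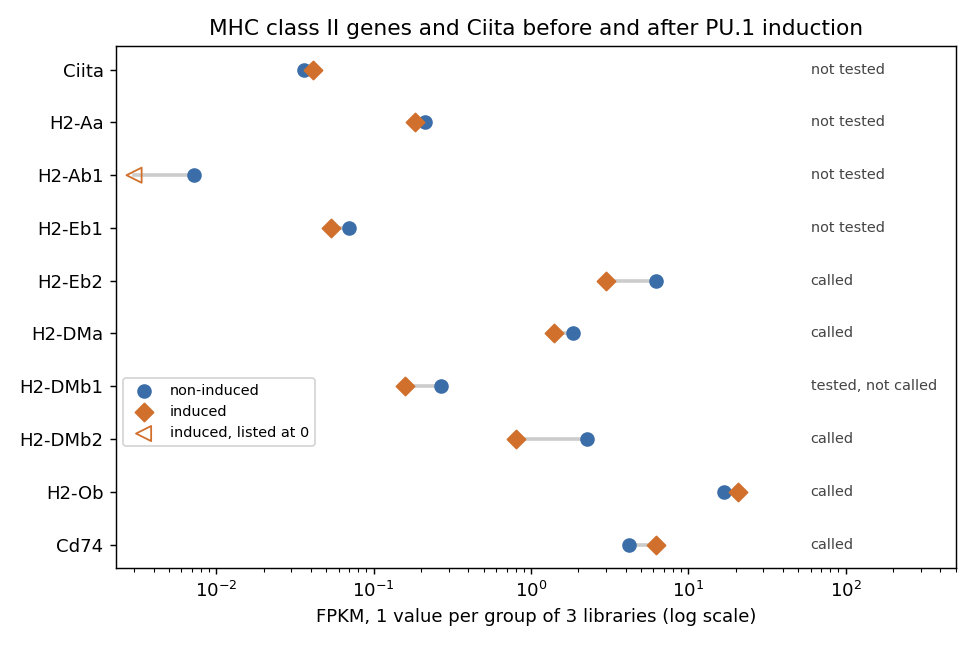
FPKM (log scale) of the 10 genes in non-induced (circles) and induced cells (diamonds), 1 group value each from 3 libraries, with no error available. Ciita and the A and E chain genes H2-Aa, H2-Ab1 and H2-Eb1 lie below 0.25 FPKM in both groups, and H2-Ab1 is listed at 0 in induced cells (open triangle at the left edge).

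Ciita, the co-activator, was listed at 0.0360 FPKM without and 0.0412 FPKM with induction by the authors' deposited table and was not tested. On the longest annotated transcript of 6007 bases this corresponds to about 25.7 and 30.3 fragments, summed over the 3 libraries of a group. Both groups therefore held few Ciita fragments, and a change of this size was not detectable at this depth. Ciita is a protein-coding gene annotated from 10480059 to 10528418 of chromosome 16, plus strand (mm10, GENCODE M21), and overlaps the annotated gene Dexi on the other strand.

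The classical chain genes were at similar low levels. H2-Aa, the alpha chain of the A pair, was listed at 0.213 and 0.183 FPKM in non-induced and induced cells of the authors' deposited table. Its partner H2-Ab1, the beta chain of the same pair, was listed at 0.00723 FPKM, worth about 1 fragment, and at 0 in induced cells there. H2-Eb1, the beta chain of the E pair, was listed at 0.0698 and 0.0538 FPKM according to the authors' deposited table. None of these 3 was tested, and an exact 0 can be a failed estimate. All 3 had the lower listed value in induced cells, but no call rests on it. Together H2-Aa, H2-Ab1 and H2-Eb1 summed to 0.290 FPKM before and 0.237 FPKM after induction. On chromosome 17 (mm10) H2-Ab1 is annotated at 34257689 to 34269419 on the plus strand, H2-Aa at 34282744 to 34287823 on the minus strand and H2-Eb1 at 34305867 to 34316674 on the plus strand.

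H2-Eb2, a beta chain gene of less well defined function beside H2-Eb1, stood apart from the other chain genes in level. It fell from 6.22 to 3.00 FPKM according to the authors' deposited table, to 48.2% of the non-induced value (log2 -1.05, implied standard error 0.17, Cuffdiff q = 0.000287). The 95% interval from that error ran from -1.38 to -0.73, and 172 tested rows (1.61%) had a log2 change as low or lower. Its coding sequence is 77.9% identical to that of H2-Eb1 over 789 aligned bases, and they share no stretch of 50 bases, so fragments of these genes can in general be told apart. H2-Eb2 is annotated from 34325665 to 34341412 of chromosome 17, plus strand (mm10).

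All DM genes had lower listed values in induced cells, and 2 of the 3 were called. H2-DMb2, a beta chain of DM, fell from 2.28 to 0.804 FPKM according to the authors' deposited table, to 35.3% of the non-induced value (log2 -1.50, implied standard error 0.30, Cuffdiff q = 0.000287). Only 74 tested rows (0.694%) had a change as low or lower. H2-DMa, the alpha chain, fell from 1.84 to 1.40 FPKM according to the authors' deposited table (a log2 change of -0.39, implied standard error 0.21, Cuffdiff q = 0.0161). The call on H2-DMa was narrow: its 95% interval ran from -0.80 to 0.01, and with p-values taken from the test statistic as a normal deviate the adjusted p was 0.232. H2-DMb1, the other beta chain, had 0.270 and 0.158 FPKM without and with induction in the authors' deposited table and gave no call (log2 -0.77, implied standard error 0.61, Cuffdiff q = 0.156).

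The DMb genes are close copies. Their coding sequences of 783 bases are 95.9% identical, and 48.1% of the stretches of 50 bases in either one occur unchanged in the other, so the split of fragments between H2-DMb1 and H2-DMb2 is uncertain. Summed, they came to 2.55 FPKM before and 0.962 FPKM after induction, for a log2 change of -1.40. The sum is less open to the split than either gene but not free of it, since FPKM is scaled to transcript length. The longest annotated transcripts have 1404 bases (H2-DMb1) and 1483 bases (H2-DMb2). The changes of H2-DMb2 and H2-DMb1 differed by -0.73 on the log2 scale with a 95% interval of -2.07 to 0.61, so a difference between the copies was not shown. Against H2-DMa the change of H2-DMb2 was lower by a log2 difference of -1.11 (95% interval -1.83 to -0.39), which treats the errors as independent although the libraries are the same. The FPKM ratio of H2-DMa to the summed DMb genes was 0.723 before and 1.46 after induction. In mm10 H2-DMa is annotated at 34119541 to 34139101, H2-DMb2 at 34143307 to 34151555 and H2-DMb1 at 34153072 to 34160230, all on the plus strand of chromosome 17, and the annotated H2-DMa overlaps Brd2 on the other strand.

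H2-Ob, the beta chain of DO, was the most abundant of the 10 in both groups. It rose from 16.97 to 20.87 FPKM according to the authors' deposited table, 1.23-fold (log2 0.30, implied standard error 0.14, Cuffdiff q = 0.00321). With p-values from the test statistic as a normal deviate the adjusted p was 0.177, so this call was lost. H2-Oa, its alpha partner and no member of the set, had 8.84 and 9.69 FPKM without and with induction in the authors' deposited table and gave no call (log2 0.13, implied standard error 0.18, Cuffdiff q = 0.359). The change of H2-Ob exceeded that of H2-Oa by 0.17 on the log2 scale with a 95% interval of -0.29 to 0.62, so the DO chains were not shown to differ. H2-Oa shares its locus in the table with BC051537, which is annotated on the other strand. H2-Ob is annotated at 34238903 to 34254414 on the plus strand of chromosome 17 (mm10).

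Cd74, the invariant chain gene, rose from 4.18 to 6.28 FPKM according to the authors' deposited table, to 150.2% of the non-induced value (log2 0.59, implied standard error 0.22, Cuffdiff q = 0.000287). Its adjusted p with the test statistic as a normal deviate was 0.0488. Among tested rows 7.07% had a log2 change as high or higher. By level, 78.1% of tested rows stood at or above Cd74 in non-induced cells and 72.1% in induced cells. Cd74 is annotated as protein-coding from 60803848 to 60812652 of chromosome 18, plus strand (mm10).

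**Figure D2:**
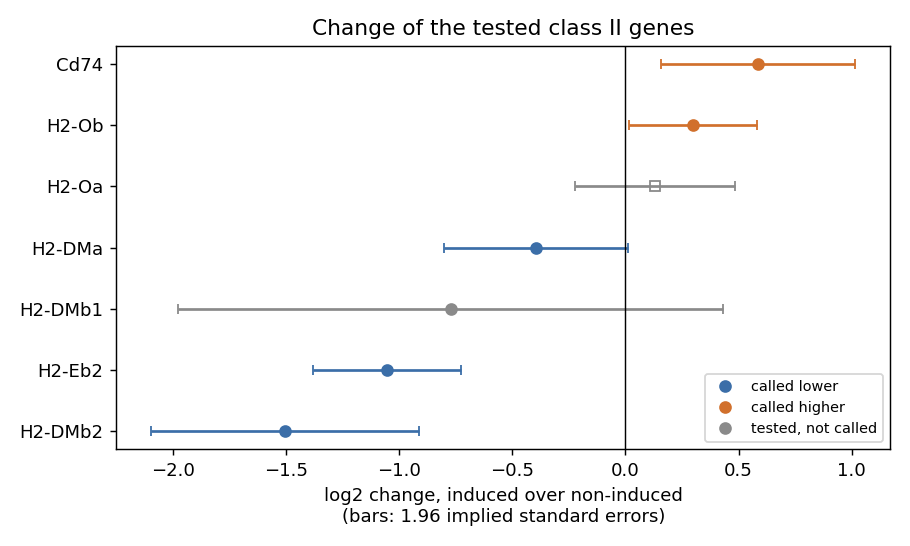
Log2 change (induced over non-induced) of the 6 tested genes of the set and of H2-Oa (open square), with bars for the 95% interval from the implied standard error. H2-DMb2 and H2-Eb2 lie wholly below 0, Cd74 and H2-Ob wholly above it, and the bar of H2-DMa reaches 0.01.

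The opposite changes left the total of the set almost where it was and altered its make-up. The 10 genes summed to 32.1 FPKM before and 32.8 FPKM after induction. H2-Ob made up 52.9% of this sum before and 63.6% after induction, Cd74 13.0% and 19.1%, H2-Eb2 19.4% and 9.15%, and H2-DMb2 7.10% and 2.45%. The order of levels in non-induced cells was H2-Ob, H2-Eb2, Cd74, H2-DMb2, H2-DMa, H2-DMb1, H2-Aa, H2-Eb1, Ciita and H2-Ab1. In induced cells Cd74 stood above H2-Eb2, H2-DMa above H2-DMb2, and H2-Aa above H2-DMb1. Levels of neighbours in this order cannot be set against a spread, since the table gives none. The DO genes together went from 25.8 to 30.6 FPKM and the DM genes from 4.39 to 2.36 FPKM. The ratio of DO to DM by FPKM was thus 5.88 before and 12.9 after induction, with no error available. Most of this shift lay in the DM sum (log2 -0.89), and less in the DO sum (log2 0.24).

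Genes side by side in the class II region changed in different directions. The class II members on chromosome 17 span 222 kb, from H2-DMa to H2-Eb2. Within this span 9 rows were tested, of which 3 were higher, 3 lower and 3 not called. Among all tested rows 19.0% were higher and 16.1% lower. The 4 genes inside it that belong to class I presentation, the transporter genes Tap1 and Tap2 and the immunoproteasome genes Psmb8 and Psmb9, lie between the DM genes and H2-Ob. Tap1 rose from 88.4 to 109.8 FPKM (log2 0.31) and Psmb9 from 176.7 to 212.6 FPKM (log2 0.27) according to the authors' deposited table. Tap2 (log2 0.17) and Psmb8 (log2 0.11) were not called there, and neither Tap1 nor Psmb9 reached 1.5-fold. On the other side of H2-DMa, Brd2, a chromatin reader gene, was not called, at 88.5 and 94.6 FPKM in the order non-induced and induced of the authors' deposited table. Of 11 tested rows in the span or within 100 kb of it that are no members, 4 were higher and 1 lower. The 1 lower row was H2-Ke6, which went from 20.3 to 16.1 FPKM according to the authors' deposited table. Among rows next to H2-Eb2, the E alpha pseudogene H2-Ea-ps was listed at 0.0130 and 0.0694 FPKM and was not tested.

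**Figure D3:**
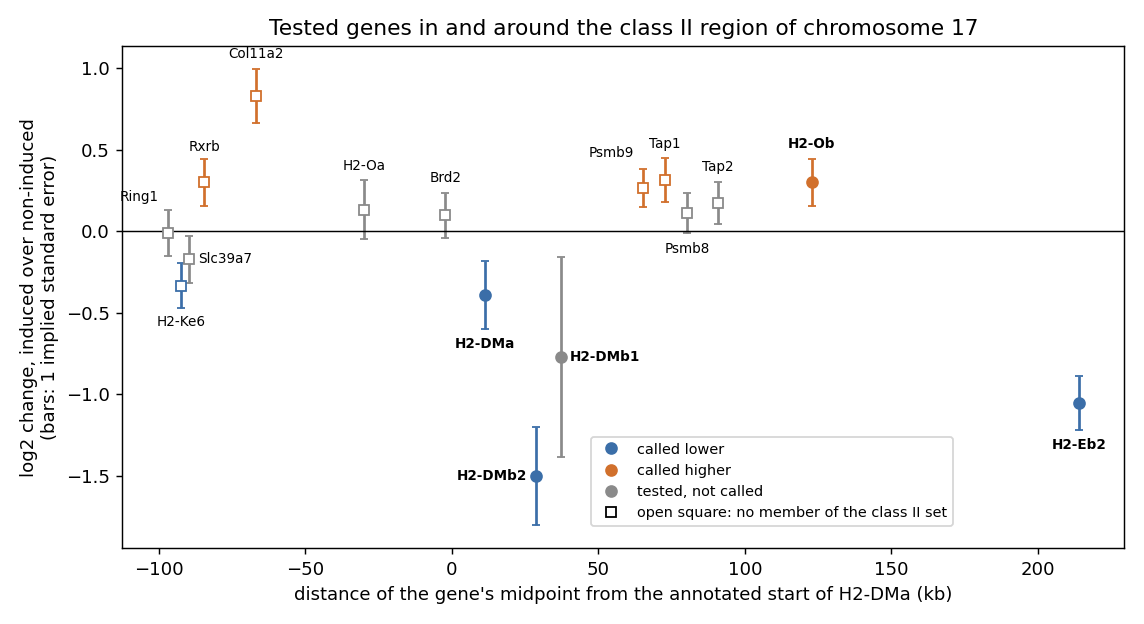
Log2 change of each tested gene against the distance of its midpoint from the annotated start of H2-DMa, with bars of 1 implied standard error. The DM genes and H2-Eb2 lie below 0, and Psmb9, Tap1, Psmb8, Tap2 and H2-Ob between them lie above it.

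The genes that act on class II promoters or on those of Ciita were expressed, in contrast to Ciita, except that 1 of 24, Prdm1, was under 1 FPKM in both groups. All 24 listed regulators and promoter complex genes were tested, and 10 rose and 3 fell, where 19.0% of all tested rows were higher and 16.1% lower. The median log2 change of the 24 was 0.16. Spi1, the gene of PU.1 itself, went from 35.96 to 246 FPKM according to the authors' deposited table (log2 2.78). PU.1 is the factor induced in this line, so Spi1 counts among the 10 by design and not as a result. Among the promoter complex genes 3 of 7 rose and none fell according to the authors' deposited table: Rfx5, the DNA-binding subunit of the RFX complex (9.08 to 11.7 FPKM, log2 0.37), and the NF-Y subunit genes Nfya (39.3 to 53.5 FPKM, log2 0.45) and Nfyc (16.6 to 19.4 FPKM, log2 0.23). The other RFX subunit genes Rfxap (9.97 and 10.4 FPKM) and Rfxank (6.87 and 7.47 FPKM), the NF-Y gene Nfyb (33.2 and 37.0 FPKM) and Creb1 (18.5 and 20.4 FPKM) were not called according to the authors' deposited table. With p-values from the test statistic as a normal deviate the calls on Rfx5 and Nfyc were lost (adjusted p 0.0740 and 0.415) and that on Nfya stood (0.0207), and none of the 3 reached 1.5-fold.

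Co-activators that Ciita works with had 3 of 5 genes higher and 1 lower, where 19.0% of all tested rows were higher and 16.1% lower. The acetyltransferase genes Kat2b (8.78 to 13.1 FPKM, log2 0.57) and Ep300 (13.6 to 17.6 FPKM, log2 0.37) and the chromatin remodeller gene Smarca4 (197 to 266 FPKM, log2 0.43) rose according to the authors' deposited table. The arginine methyltransferase gene Carm1 fell there (log2 -0.29). Of 10 genes for activators that act on Ciita promoters, 3 rose, the induced Spi1 among them, and 2 fell. Besides Spi1 these were Irf1 (46.8 to 61.8 FPKM, log2 0.40) and Usf1 (log2 0.29), which rose, and Irf4 (100.5 to 62.9 FPKM, log2 -0.68) and Ets1 (log2 -0.54), which fell, according to the authors' deposited table. Irf8, an interferon regulatory factor that partners PU.1, stood at 86.4 and 96.4 FPKM and Spib, the closest relative of Spi1, at 8.65 and 8.30 FPKM according to the authors' deposited table, and neither was called. Of the repressor genes, Ezh2, which encodes a histone methyltransferase, rose (log2 0.27), and Prdm1, the plasma cell factor that represses Ciita, was listed at 0.519 and 0.597 FPKM and was not called there. With p-values from the test statistic as a normal deviate, Spi1, Nfya, Kat2b and Smarca4 were the regulators still called higher, and the calls on Ep300, Carm1, Irf1, Usf1 and Ezh2 were lost. With a 1.5-fold minimum the regulators called higher came to 1, the induced Spi1 itself, and those called lower to 1, Irf4.

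In the list of antigen processing and trafficking genes 17 of 25 were tested, with a median log2 change of 0.20 over those tested. Among these 17, 8 rose and 3 fell, where 19.0% of all tested rows were higher and 16.1% lower. Ctss, the cathepsin that trims the invariant chain in B cells, rose from 72.7 to 94.7 FPKM, and Ctsb from 53.3 to 67.7 FPKM, according to the authors' deposited table. Lgmn, the asparaginyl endopeptidase, rose from 0.622 to 1.95 FPKM (log2 change 1.65, with an implied standard error of 0.25) and Cst3, the cathepsin inhibitor cystatin C, from 133 to 275 FPKM (log2 1.05, implied standard error 0.11) according to the authors' deposited table. Ifi30, the lysosomal thiol reductase, fell from 147 to 116 FPKM according to the authors' deposited table (log2 -0.34). Ctsl, the cathepsin that trims the invariant chain in thymic epithelium, was listed at 0 in both groups, which can be a failed estimate, as was Ctsf. Ctsh, another cathepsin gene, was listed at 0.0721 and 0.0145 FPKM and was not tested. With p-values from the test statistic as a normal deviate the calls on Ctss and Ctsb were lost (adjusted p 0.0726 and 0.145), and Lgmn, Cst3, Cd44 and Cxcr4 were the 4 genes of the list still called higher. The same 4 were called higher with a 1.5-fold minimum.

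Of the genes for trafficking and surface turnover 5 were tested, and 2 rose and 1 fell. Lamp2 (76.4 to 100.4 FPKM, log2 0.39) and Ap1m1 (69.7 to 88.2 FPKM, log2 0.34) rose according to the authors' deposited table. With p-values from the test statistic as a normal deviate both calls were lost (adjusted p 0.0680 and 0.0716). The ubiquitin ligase gene March8 had been turned into a date in the table and was identified by its locus. March8 fell from 7.01 to 5.20 FPKM according to the authors' deposited table (log2 -0.43). March1, the ligase that removes class II from the surface of B cells and dendritic cells, was identified in the same way, was listed at 0.0564 and 0.164 FPKM and was not tested. Cd83, which counters March1, was listed at 0 in both groups. The partners of Cd74 as a receptor were all called according to the authors' deposited table, where 35.1% of all tested rows were called. Cd44 (11.7 to 18.2 FPKM) and Cxcr4 (71.5 to 111.1 FPKM) rose there, and the ligand gene Mif (326 to 263 FPKM) fell.

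The listed co-stimulation and checkpoint genes were for the most part near 0. Of 12 listed genes 7 were under 0.1 FPKM in both groups, among them the co-stimulatory genes Cd80, Cd86 and Cd40. The 7 also include the genes of the inhibitory receptors Lag3 and Btla. Of the 5 tested, 3 rose and 1 fell, where 19.0% of all tested rows were higher and 16.1% lower. Icam1, an adhesion molecule of the T cell contact, rose from 17.5 to 44.6 FPKM (log2 1.35), Cd274, which encodes PD-L1, from 2.47 to 4.01 FPKM (log2 0.70) and Cd48 from 74.0 to 101.1 FPKM (log2 0.45) according to the authors' deposited table. Pdcd1lg2, which encodes PD-L2, fell from 1.04 to 0.4695 FPKM there (log2 -1.15).

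**Figure D4:**
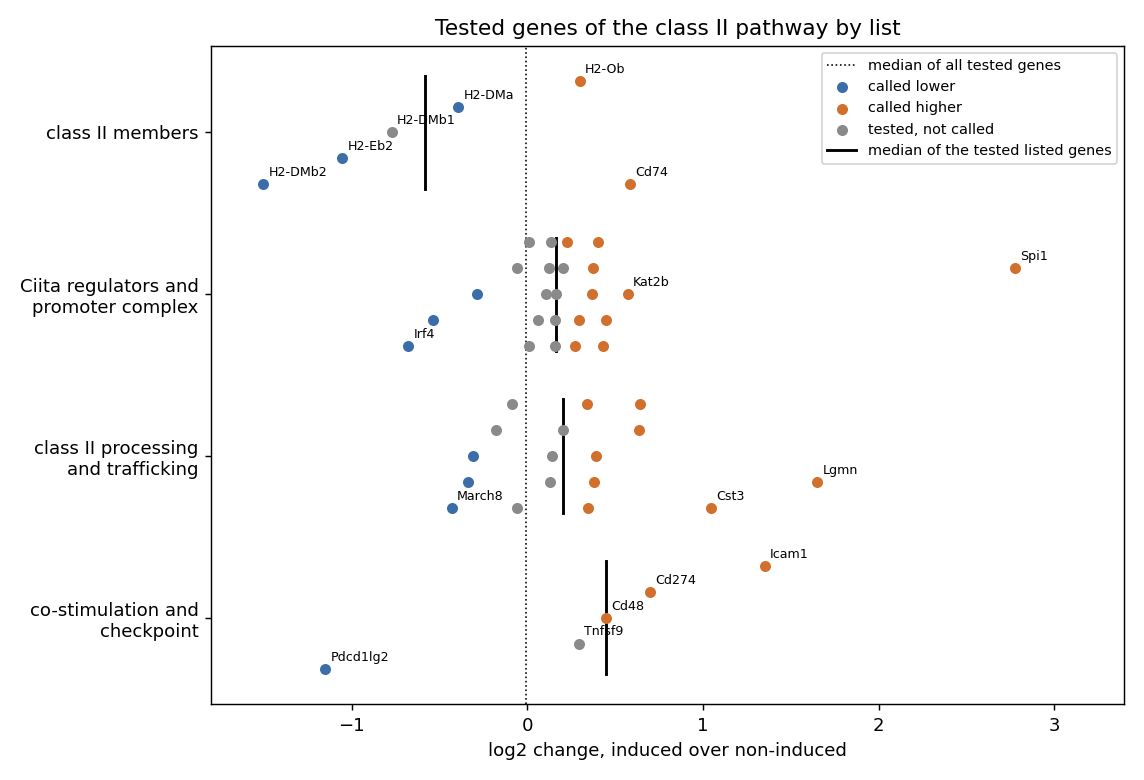
Log2 change of every tested gene in the class II set and in the lists of Ciita regulators, processing and trafficking genes and co-stimulation genes, with the median of the tested genes of each list (black bar) and of all tested genes (dotted line). The median of the class II set, -0.58, lies below 0, and those of the other lists, 0.16, 0.20 and 0.45, lie above it.

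These medians cover tested genes. Over all genes with a finite log2 change, the median was -0.37 for the class II set, 0.16 for the regulators, 0.17 for the processing genes and 0.06 for the co-stimulation genes. With a pseudocount of 1 FPKM the median of the class II set was -0.035.

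Cell identity markers were read beside these results and beside all tested rows, of which 19.0% were higher and 16.1% lower. Of 12 pro-B markers 11 were tested, 8 of them higher and none lower, the sum over all 12 going from 2766 to 4197 FPKM according to the authors' deposited table, whereas Kit was listed at 0 in both groups and can be a failed estimate. Of 10 dendritic markers 7 were under 0.1 FPKM in both groups, and the summed level was 71.9 FPKM before and 55.8 FPKM after induction, most of it Ccr7 (71.6 to 50.9 FPKM). Among these, Siglech, a plasmacytoid dendritic cell receptor, rose from 0.0389 to 3.98 FPKM and Flt3, a cytokine receptor of progenitors, from 0.308 to 0.759 FPKM according to the authors' deposited table. Of 10 macrophage markers 5 were tested and all 5 rose, with Lyz2 at 15.2 FPKM in induced cells of the authors' deposited table. Cd14 (0 to 0.995 FPKM) and Mpeg1 (0.0514 to 0.907 FPKM) were near 0 without induction there. Such genes were rarely tested unless they rose, so the direction of their calls was largely fixed in advance. The same holds for Siglech and, among the pro-B markers, for Rag1 (0.00348 to 0.434 FPKM in the authors' deposited table). Over all 10 macrophage markers the sum was 2.49 FPKM before and 24.8 FPKM after induction. Most of the later sum was Lyz2 and Cd68 (1.85 to 6.86 FPKM in the authors' deposited table), and 8 of the 10 were under 1 FPKM in both groups. Csf1r, Adgre1, Mertk, Itgam and Fcgr1 were not tested, the highest of them in induced cells being Csf1r at 0.192 FPKM. The part of the macrophage markers in the rise of Cd74 was not tested. Mature B markers summed to 100.9 FPKM before and 52.8 FPKM after induction, with Cd22 (45.0 to 15.2 FPKM) and Cxcr5 (32.0 to 9.56 FPKM) lower according to the authors' deposited table, and their part in the falls of H2-Eb2, H2-DMa and H2-DMb2 was not tested. The 8 T cell markers, of which 7 had a row, summed to 70.9 FPKM before and 53.0 FPKM after induction, and among them Cd3e and Cd4 were listed at 0 in both groups. Most of this sum was Lck, a kinase gene, which fell from 66.0 to 46.1 FPKM by the authors' deposited table, while Cd2, an adhesion receptor gene, rose there from 4.62 to 6.68 FPKM.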

How the data were processed

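Messenger RNA libraries (6) of i660BM cells were compared by the authors as 3 non-induced against 3 induced. Per the submitters' processing notes, the tools were Cuffdiff 2.1.1, Cufflinks, TopHat2 2.0.9 and Trim Galore 0.2.8.1, with mm10 as the build. The libraries were stranded, per the labels' protocols. Annotation and the strand setting of the counting were not given in the sources used here. From the table, the deposited FPKM values, log2 fold changes, test statistic (a score), p-values and q-values were used as the authors deposited them. With group values only, no test between libraries was refitted, and p-values measure the spread between libraries that may be technical.

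Calls are the authors' (tested, q under 0.05, over all 10657 tested rows). Steps between the lowest FPKM values of genes with 1 annotated transcript of at least 1000 bases, times length, were worth about 1 fragment: this gave a depth of about 119000000 fragments for non-induced and 122000000 for induced cells, with 70.4% and 64.9% of low values within 0.15 of whole, where an even spread would give 30.0%. Depth per library is unknown. Coordinates are from GENCODE M21 (mm10), promoters from RefSeq (GRCm38.p6). Coding sequences were aligned with Biopython 1.88. The adjustment was tested on simulated data. Python 3.11.15, pandas 2.3.3 and SciPy 1.17.1 were used.

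The members, the 3 pathway lists, the 5 marker lists and the tests were chosen with earlier results of these data known. All 10 members are named, and from each list the called genes with the largest changes and those whose role the text needs. With 2 values per gene, no gene was sought for a like pattern. Rows inside the class II span of chromosome 17 or within 100 kb of it were taken as neighbours.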

Additional observations from a re-analysis of the deposited data

How the results depend on the processing

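No paired analysis was possible because the deposited table holds group values and no library values, and for the same reason no library could be left out. The class II calls were recounted under 5 other rules. With p-values from the test statistic as a normal deviate, where 15.2% of tested rows were called, the members called higher fell from 2 to 1 (Cd74 remained) and those called lower from 3 to 2 (H2-Eb2 and H2-DMb2 remained), the regulators called higher from 10 to 4 and the processing genes called higher from 8 to 4. With a minimum of 1.5-fold (10.2% called) the members called higher came to 1 and lower to 2. By the same rule the regulators came to 1 higher, the induced Spi1 itself, and 1 lower, and the processing genes to 4 higher and 0 lower. Over rows with a mean of at least 1 FPKM, 0 co-stimulation genes were called lower in place of 1, since Pdcd1lg2 was left out. A q-value under 0.01 left H2-DMa uncalled. No member shares its locus with another row, so leaving out rows that do could not change a member's call. The median log2 change of the 9 members with a finite value was -0.37, and was -0.14 with a pseudocount of 0.1 FPKM and -0.035 with 1 FPKM, since the pseudocount shrinks the low genes. A pseudocount cannot reverse a direction. The scalings took off only the median of all tested rows (-0.0075) or the log2 shift of the upper quartile (-0.0075). Neither therefore tests the direction of a member. Summing H2-DMb2 with H2-DMb1, an alternative chosen after seeing the data, gave a log2 change of -1.40 in place of -1.50. H2-Ab1 has no log2 value because it is listed at 0 in induced cells.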

Other observations

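Of the 13 promoter windows with X box letters ahead of a Y box core at the stated spacing, 6 lie in or next to the class II region of chromosome 17, the 5 described and that of BC051142, a neighbour beyond H2-Eb2. BC051142 was listed at 0 in both groups. The other windows were those of AU016765, farther along chromosome 17, of Tnfrsf9 on chromosome 4 and of 5 neighbouring genes with provisional Gm names on chromosome 16. The letters were chosen after the class II windows had been read, so this count describes them and tests nothing.

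The butyrophilin-like genes Btnl2 and Btnl1, which follow H2-Ea-ps on chromosome 17, were listed at 0.0558 and 0.157 FPKM and at 0 and 0.1997 FPKM in non-induced and induced cells of the authors' deposited table. Neither was tested. Col11a2, a collagen gene on the other side of the region, rose from 1.70 to 3.03 FPKM there (log2 0.83).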
